A study of Mus musculus with 4 samples.

Results

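A stretch of 10 Mb on distal mouse chromosome 8 (chr8:115000001-125000000 in mm9) held 1136 regions enriched for H3K9me3 or H3K36me3. These were all regions of both lists whose start lay within the bounds, namely 937 of the 32502 H3K9me3 regions and 199 of the 31593 H3K36me3 regions of the series (1136 of 64095 in all). The rest of chromosome 8 held 2382 H3K9me3 and 1895 H3K36me3 regions. The stretch was chosen by its number of H3K9me3 regions and its ratio of the marks, so these values are given as a description with no test.

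Both histone marks were profiled by ChIP-seq, which sequences the DNA that an antibody pulls down with a modified histone, in mouse embryonic stem (ES) cells of strain 129S1/SvImJ below passage 20. There were 4 libraries, 1 for each mark in wild type cells (WT129) and 1 for each mark in Targeted H3.3 G34R ES cells. The G34R cells carried the mutation on a single copy of H3f3a, expressed from its own promoter after a Cre-mediated exchange, next to a WT copy of H3f3a and WT H3f3b; the labels give no clone. Both cell types were grown with serum and leukemia inhibitory factor. The authors pooled the cell types into 1 list per mark, and a list gives positions only, so a region may be enriched in WT cells, in G34R cells or in both, and the depth behind it is unknown. For the same reason the ES cell identity could not be checked against marker genes, and the comparison of WT with G34R cells within the stretch was not analysed here. Sequence outside annotated genes could not enter a list.

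H3K9me3 is a mark of heterochromatin. It is laid down by methyltransferases such as SETDB1 and SUV39H1, is bound by HP1 proteins, and covers silenced genes and repeated sequence. H3K36me3 is laid down by SETD2, which travels with elongating RNA polymerase II, and it therefore lies over the bodies of transcribed genes rather than at their starts. KDM4 demethylases can remove both. Wwox and Cdh13, which lie in the stretch, are among the longest genes of the mouse genome, and WWOX spans a common fragile site in human cells.

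Sequences of 5 enriched places are shown as examples, from CpG-rich coding sequence to introns, and do not give the full range of the lists. They were read from the + strand of NCBIM37, the assembly equivalent to mm9, at the centre of each region or next to it where the centre was untranslated sequence, and capitals mark CG dinucleotides, which read the same on both strands. The first lies in the coding sequence of Foxf1a and the second at the coding start of Cox4nb, a gene of the minus strand that shares its start region with Cox4i1. The Cox4nb region was picked as the one at a gene start with the most CpG per kb. The third was picked among the 98 intronic H3K9me3 regions of 600 bp in Cdh13 as the one at their median G+C content. It is not typical in CpG, with 18.3 per kb against a median of 11.7 and an upper quartile of 16 for the H3K9me3 regions of Cdh13.
Foxf1a coding sequence, widest H3K9me3 region, chr8:123608351-123608650: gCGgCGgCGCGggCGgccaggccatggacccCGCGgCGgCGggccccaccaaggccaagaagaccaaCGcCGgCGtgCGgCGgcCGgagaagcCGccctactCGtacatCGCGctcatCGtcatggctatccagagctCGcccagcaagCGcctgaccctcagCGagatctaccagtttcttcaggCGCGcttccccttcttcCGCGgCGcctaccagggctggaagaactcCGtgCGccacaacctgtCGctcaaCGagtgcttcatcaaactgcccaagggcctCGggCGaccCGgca
Cox4nb coding start, H3K9me3 region at a gene start, chr8:123191609-123191878: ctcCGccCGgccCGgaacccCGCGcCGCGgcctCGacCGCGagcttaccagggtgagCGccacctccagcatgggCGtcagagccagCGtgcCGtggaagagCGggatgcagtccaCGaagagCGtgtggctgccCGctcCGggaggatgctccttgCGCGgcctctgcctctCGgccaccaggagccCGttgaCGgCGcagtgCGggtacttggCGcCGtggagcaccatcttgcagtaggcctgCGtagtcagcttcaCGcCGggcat
Cdh13 intron, H3K9me3 region, chr8:120899151-120899450: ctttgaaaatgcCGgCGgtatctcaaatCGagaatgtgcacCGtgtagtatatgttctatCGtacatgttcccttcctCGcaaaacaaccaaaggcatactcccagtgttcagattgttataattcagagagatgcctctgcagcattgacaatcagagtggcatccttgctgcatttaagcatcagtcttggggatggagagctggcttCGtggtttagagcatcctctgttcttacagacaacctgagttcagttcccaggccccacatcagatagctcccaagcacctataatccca
Gse1 intron, widest H3K36me3 region, chr8:123094251-123094550: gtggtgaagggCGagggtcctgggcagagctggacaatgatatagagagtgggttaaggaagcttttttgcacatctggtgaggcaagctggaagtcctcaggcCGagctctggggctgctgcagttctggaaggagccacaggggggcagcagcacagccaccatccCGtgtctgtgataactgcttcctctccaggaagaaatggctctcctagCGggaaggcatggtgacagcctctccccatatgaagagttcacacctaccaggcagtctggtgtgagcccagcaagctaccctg
Mthfsd intron, widest interval of both marks, chr8:123623651-123623950: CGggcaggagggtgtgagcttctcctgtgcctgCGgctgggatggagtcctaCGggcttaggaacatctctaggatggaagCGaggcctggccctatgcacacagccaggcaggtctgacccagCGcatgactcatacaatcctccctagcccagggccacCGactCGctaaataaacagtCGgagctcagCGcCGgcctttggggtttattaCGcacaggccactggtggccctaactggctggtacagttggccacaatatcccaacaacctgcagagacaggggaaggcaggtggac

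The Foxf1a window held 35 CG in 300 bases and the Cox4nb window 31 in 270 bases. Among 171626 windows of 300 bases in genes of chromosome 8, 86.6% held a CG, the median was 2, and 0.265% held at least 35. The Cdh13 intron held 7 CG, a number reached by 11.1% of such windows, and the Gse1 intron held 4, reached by 34.5%. The Mthfsd intron, where both marks overlapped, held 11, reached by 3.16%. All 5 windows held more CG than the median window, but they were picked as examples, so this does not describe the lists.

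H3K9me3 regions were found in every 1 Mb window of the stretch but varied widely in number. From the first window to the last there were 17, 54, 153, 6, 67, 87, 222, 93, 152 and 86 H3K9me3 regions, against 0, 6, 0, 0, 76, 8, 2, 26, 14 and 67 H3K36me3 regions. The median was 86.5 H3K9me3 regions per window, whereas the 115 other windows of the chromosome that hold annotated genes had a median of 14 (range 0 to 82). Thus 6 of the 10 windows exceeded the highest window outside, and 3 windows held no H3K36me3 region. Of these 6, the windows with 93, 152 and 86 regions included 43, 125 and 50 that lay only in the long gene model Gm20388, described below. Per Mb of annotated gene the highest window outside held 150. The windows of the stretch above it held 174, 211, 244 and 152, the last mostly through Gm20388. The window with 6 regions contained Maf and only 0.0256 Mb of annotated gene. More H3K9me3 than H3K36me3 regions were counted in 9 of the 10 windows and in 67 of 122 windows outside. The 122 include windows with no annotated gene, which could hold neither mark. The exception in the stretch was the window of Cdyl2, with 67 and 76.

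**Figure D1:**
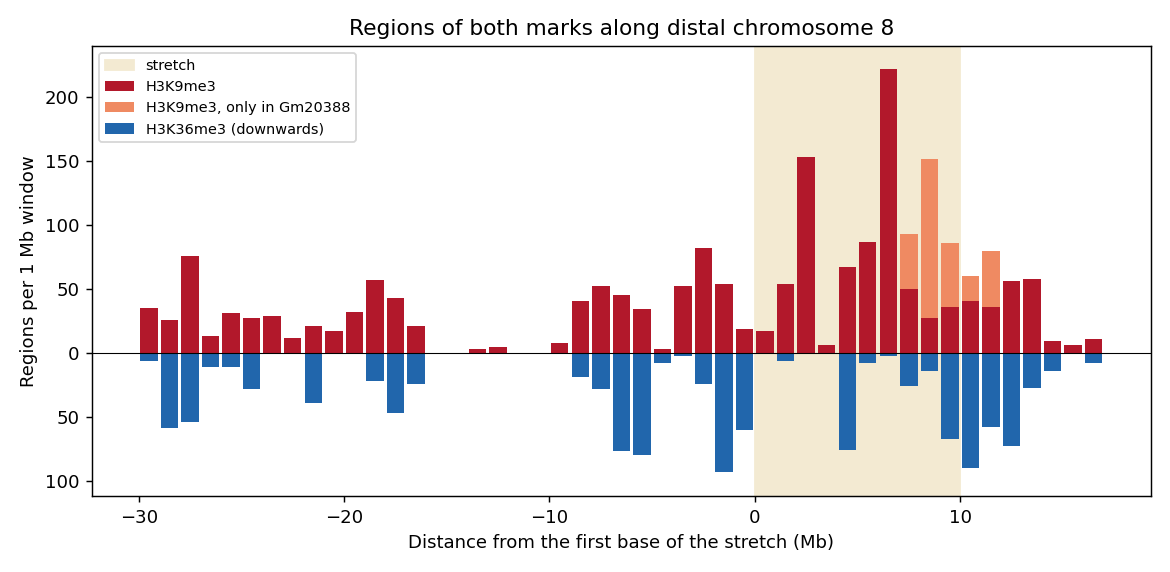
H3K9me3 regions (upwards) and H3K36me3 regions (downwards) per 1 Mb window, by distance in Mb from the first base of the stretch, which is shaded. H3K9me3 regions that lie in no gene other than the long model Gm20388 are in orange. The highest window of the stretch held 222 H3K9me3 regions and the highest outside it 82.

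The stretch held 93.7 H3K9me3 regions per Mb against 19.6 in the rest of the chromosome, a ratio of 4.79 (95% interval 4.44 to 5.17). Against the adjacent 10 Mb on the centromere side the ratio was 2.40 (2.13 to 2.71). It was computed per Mb of chromosome only, so a difference in gene content between the 2 is not taken into account. For H3K36me3 the densities were 19.9 and 15.6 per Mb, a ratio of 1.28 (1.10 to 1.48). Intervals here and below cover counting error only, because there were no replicates and because neighbouring regions and bins are not independent. As only genes could enter the lists, the density per Mb of annotated gene is the closer comparison. On that scale H3K9me3 stood at 146 against 52.6 (ratio 2.77, 2.57 to 2.99) and H3K36me3 at 31.0 against 41.9 (ratio 0.740, 0.636 to 0.857). The share of H3K9me3 among the regions of both lists was 82.5% (80.2 to 84.6) in the stretch and 55.7% (54.2 to 57.2) in the rest. Counted by length, H3K9me3 made up 67.1% and 40.6%.

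The bounds of the stretch are whole Mb. Before the first bound, the last H3K9me3 region lay at chr8:114525401-114526000, and the first one inside at chr8:115126401-115127400. At the other end, an H3K9me3 region at chr8:124999401-125000600 was counted inside and the next one, at chr8:125002801-125003800, outside. The window just before the stretch held 19 H3K9me3 and 60 H3K36me3 regions, and that just after it 60 and 90.

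Most H3K9me3 regions of the stretch, 635 of 937 (67.8%, 64.7 to 70.7), came from 3 annotated models. Cdh13, which encodes T-cadherin, a cell adhesion protein held to the membrane by a lipid anchor, held 261 of the 937 regions (27.9%). Wwox, which encodes an oxidoreductase with WW domains, held 156 (16.6%). A further 218 (23.3%) lay in no gene other than Gm20388. The remaining 302 regions (32.2%) were spread over the other genes. H3K36me3 regions were distributed differently. Cdh13 held none of the 199 (upper limit 1.89%), Wwox 5, sequence only in Gm20388 6, and the other genes 188 (94.5%).

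Gm20388 is a model of 4.43 Mb, the longest protein-coding model on the autosomes, with the next longest at 3009 kb. It starts at chr8:122434741 and runs past the end of the stretch, overlaps 74 other protein-coding genes (33 of them in the stretch), and all of its 16 exons overlap exons of other genes. Within the stretch, 1.67 Mb lay in Gm20388 and in no other gene. Without this model, that sequence would count as lying between genes, where 0 bins were listed for H3K9me3 over 3.58 Mb in the stretch and 76.4 Mb in the rest, since the authors kept genic bins only. The study used UCSC genes and the annotation here was GENCODE. In sequence only in Gm20388, 1161 bins were listed for H3K9me3, so the filter of the authors must have kept these bins as genic. Which UCSC genes covered them, and how much of the remaining sequence, was not checked. This limits the densities per genic Mb and the share only in Gm20388. Of the 152 H3K9me3 regions in the window 8 Mb into the stretch, 125 lay in Gm20388 alone. Outside the stretch, the model also supplied 44 of the 80 regions of the window 11 Mb from its start.

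Leaving out Gm20388 raised the ratio for H3K9me3 slightly, leaving out Wwox and Cdh13 lowered it, and the direction for H3K36me3 turned. Removal of sequence only in Gm20388 on both sides gave an H3K9me3 ratio per genic Mb of 2.90 (2.66 to 3.16) and an H3K36me3 ratio of 0.958 (0.822 to 1.11). Without Wwox and Cdh13 as well, the stretch held 108 H3K9me3 regions per genic Mb against 52.1 (ratio 2.07, 1.83 to 2.33). H3K36me3 then stood at 67.1 against 42.3 (ratio 1.58, 1.36 to 1.84). In these other genes the share of H3K9me3 among the regions of both lists was 61.6% (57.3 to 65.8), compared with 55.2% (53.7 to 56.7) in the rest of the chromosome without sequence only in Gm20388. These comparisons left out long genes of the stretch alone. With all genes of at least 500 kb left out on both sides (2 in the stretch and 12 in the rest), in addition to sequence only in Gm20388, the ratio was 1.82 (1.61 to 2.06) for H3K9me3 and 1.24 (1.06 to 1.45) for H3K36me3. The share of H3K9me3 among the regions of both lists was then 61.6% against 52.3% (50.7 to 53.9).

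Cdh13 and Wwox ranked first and second by H3K9me3 regions per 100 kb among the 188 protein-coding models of at least 500 kb on the autosomes. Cdh13 (chr8:120807633-121848821, plus strand) had 25.1 regions per 100 kb and Wwox (chr8:116963555-117876608, plus strand) 17.1. The next gene, Cacna1c on chromosome 6, which encodes a calcium channel subunit, had 13.4. The median of the 185 models other than Cdh13, Wwox and Gm20388 was 1.28. On chromosome 8 itself the other long genes ranged from 0.351 in Sgcz to 9.44 in Dlgap2. These genes were part of what selected the stretch, so their rank is a description.

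The mark lay differently along the length of Cdh13 and Wwox. In Cdh13 each of 10 equal parts held between 19 and 31 H3K9me3 regions, and between 15.2% and 37.2% of the bins were listed. In Wwox the first part held 4 regions (2.84% of bins) and the last part 30 (39.4% of bins), with 24 and 25 in the eighth and the ninth. The G+C content was 46.6% in the first part of Wwox and 45.1% in the last, and from 44.3% to 47.2% in the parts of Cdh13. The 5 H3K36me3 regions of Wwox all ended within 11.4 kb of its start. The median gap between H3K9me3 regions was 1400 bp in Cdh13 and 2000 bp in Wwox, with longest gaps of 23200 and 75600 bp. The regions covered 287 kb of Cdh13 and 155 kb of Wwox.

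**Figure D2:**
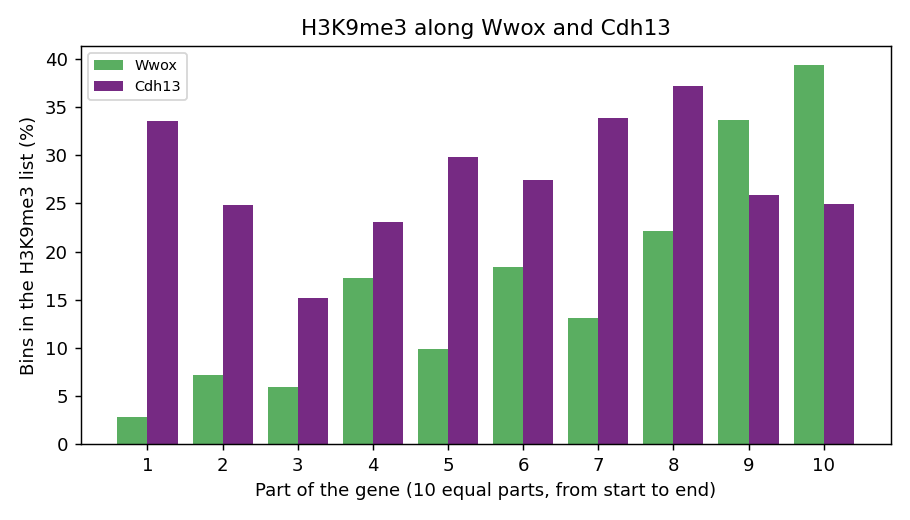
Share of 200 bp bins in the H3K9me3 list (%) in 10 equal parts of Wwox and Cdh13, from gene start to gene end. Bars are the counts of the pooled list, with no replicates. In Wwox the share is 2.84% in the first part and 39.4% in the last, whereas in Cdh13 it lies between 15.2% and 37.2% in every part.

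Most protein-coding genes of the stretch carried H3K9me3. Gm20388 aside, 59 of 74 (79.7%, 69.2 to 87.3) held an H3K9me3 region, against a background of 41.4% of the protein-coding genes of the autosomes and 565 of 1007 (56.1%) in the rest of chromosome 8. H3K36me3 was found in 39 of 74 genes (52.7%, 41.5 to 63.7), against a background of 35.2% and 475 of 1007 (47.2%) in the rest. Both marks were present in 28 genes of the stretch (37.8%), in 25.7% of the rest and in 11.8% of genes on the other autosomes. The share of each single mark was also higher in the stretch, and whether the marks met more often than these shares give was not tested. Only Clec3a, 1700030J22Rik, 1110003O08Rik and Il17c carried neither, which is 5.41% of genes compared with 22.4% in the rest and 36.7% on the other autosomes. The median gene length was 20.1 kb in the stretch and 15.6 kb in the rest, and longer genes have more bins that can be listed.

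The higher share of genes with H3K9me3 was present in each class of length, although the classes are small. Among genes under 20 kb it was 24 of 37 (64.9%, 48.8 to 78.2) in the stretch and 41.5% (37.6 to 45.6) in the rest. Among genes of 20 to 100 kb it was 27 of 29 (93.1%, 78.0 to 98.1) and 71.3% (66.3 to 75.9). All 8 genes of 100 kb or more in the stretch carried the mark, as did 95.4% in the rest, and here the intervals overlapped.

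**Figure D3:**
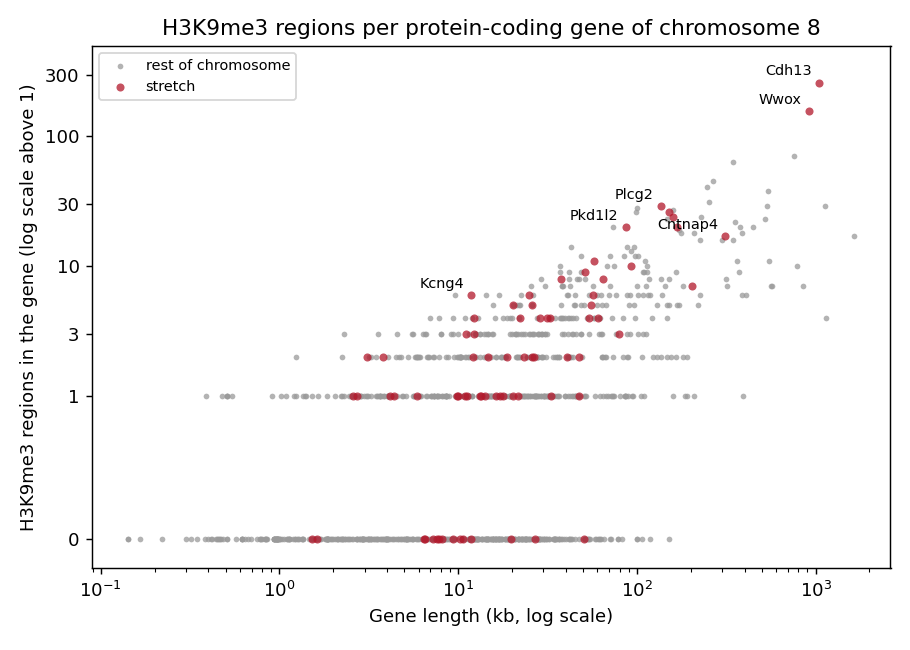
Number of H3K9me3 regions against gene length (kb), both on log scales with genes without a region at 0, for 74 protein-coding genes of the stretch (red) and 1007 of the rest of chromosome 8 (grey). Gm20388 is left out. Cdh13 (261 regions) and Wwox (156) lie above every other gene, and the other genes of the stretch lie among those of the rest of the chromosome.

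There were 10 genes with at least 10 H3K9me3 regions (13.5% of the stretch, 4.27% of the rest, 2.46% on the other autosomes). Of these 10, 6 had no H3K36me3 region. After Cdh13 and Wwox came Plcg2, a phospholipase C of immune receptor signalling, with 29 H3K9me3 regions and 5 H3K36me3 regions. Adamts18, a secreted metalloprotease, had 26 and 0. Cdyl2, a chromodomain protein that binds methylated H3K9, had 24 and 23. Pkd1l2, a polycystin-like membrane protein, and Vat1l each had 20 and 0, and Cntnap4, a neuronal adhesion protein, had 17 and 0. Atp2c2, a calcium pump of the secretory pathway, had 11 and 0, and Gse1, a coiled-coil nuclear protein, 10 and 5. Just below this number were 6430548M08Rik with 9, and Bcmo1, which cleaves beta-carotene, and Jph3, a junctional membrane protein of excitable cells, with 8 each, none of which had an H3K36me3 region.

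The genes with the most H3K36me3 regions were in part the same. Of the 39 genes with H3K36me3, 28 also carried H3K9me3, a lower share than among all genes of the stretch (59 of 74, 79.7%). The gene with the most regions was 4933407C03Rik, with 32 H3K36me3 and 7 H3K9me3 regions over 204 kb. Cdyl2 followed with 23, Banp, a nuclear matrix-binding protein, with 17, and Zcchc14, a zinc knuckle protein, with 12. Klhdc4, a kelch protein, had 10, 2310061C15Rik 8 and Zc3h18, a zinc finger protein of RNA processing, 7. Of these, Banp held 3 H3K9me3 regions, Zcchc14 4, Klhdc4 1, 2310061C15Rik 4 and Zc3h18 2.

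The listed genes of the stretch are given by role. Their counts are read against the shares in the stretch itself, 79.7% of genes with H3K9me3 and 52.7% with H3K36me3, since the stretch was chosen for H3K9me3. No difference between the groups was tested. None of the 3 genes listed under DNA replication and cell division held H3K9me3, and each held 3 H3K36me3 regions. These were Gins2, a subunit of the replicative helicase, with 8600 bp of H3K36me3, Cenpn, which binds the centromeric nucleosome, with 15800 bp, and Mphosph6, a phosphoprotein that assists the RNA exosome, with 6800 bp. The stated role of Mphosph6 lies outside the group name, and with 3 genes no comparison with the stretch was made.

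Of 7 developmental transcription factors in the stretch, 6 carried H3K9me3, close to the share of 79.7% in the stretch, and 2 carried H3K36me3, on few genes. Maf, a bZIP factor of lens and immune cells, held 6800 bp of H3K9me3 in 6 regions and no H3K36me3. Irf8, a factor of myeloid cells, held 3400 bp in 5 regions, and the forkhead genes Foxf1a and Foxc2, which act in mesoderm, were covered over their whole length (2800 bp each in whole bins). Foxl1, another forkhead gene, is annotated as a pseudogene in this assembly and held 1200 bp. Zfpm1, a cofactor of GATA factors, held 8200 bp of H3K9me3 and 600 bp of H3K36me3. The exception was Snai3, a member of the Snail family, with 4600 bp of H3K36me3 and no H3K9me3.

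Among chromatin and nuclear factors, 4 of 5 carried H3K9me3 and all 5 carried H3K36me3. Cdyl2 had 29200 bp of H3K9me3 and 40400 bp of H3K36me3, the most even split of this group. Banp had 2000 and 43800 bp, Gse1 7600 and 34800 bp, and Zc3h18 1200 and 35600 bp. Taf1c, a subunit of an RNA polymerase I factor, had 6200 bp of H3K36me3 alone. All 3 zinc finger genes of the list, namely Zfpm1, Snai3 and Zc3h18, carried H3K36me3 and 2 carried H3K9me3.

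Of 11 genes of signalling and protein turnover, 9 carried H3K9me3 and 11 carried H3K36me3. The deubiquitinase Usp10 had 600 bp of H3K9me3 and 28000 bp of H3K36me3, and Mbtps1, the site-1 protease, had 38400 bp of H3K36me3 and no H3K9me3. Plcg2 stood apart with 32800 bp of H3K9me3 and 4800 bp of H3K36me3. Klhl36, a kelch protein, also had more H3K9me3 (3000 bp) than H3K36me3 (600 bp). The remaining 7 of the list had 600 to 2600 bp of H3K9me3 or, in Fbxo31, none, and 2600 to 19800 bp of H3K36me3.

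Of 6 genes listed under channels and transporters, 5 carried H3K9me3 and 2 carried H3K36me3. Of these 6, Jph3 and Cyba are neither, and all 4 others carried H3K9me3 and 1 carried H3K36me3. Jph3 held 13200 bp of H3K9me3, Atp2c2 8800 bp, the potassium channel subunit Kcng4 4800 bp in a gene of 11.8 kb, and the amino acid transporter Slc38a8 3800 bp, all with no H3K36me3. Slc7a5, the amino acid transporter of growing cells, differed with 2000 bp of H3K9me3 and 23000 bp of H3K36me3. Cyba, a subunit of NADPH oxidase, had 4000 bp of H3K36me3 alone. In metabolism, 5 of 6 carried H3K9me3 and 4 carried H3K36me3. Hsd17b2, a steroid dehydrogenase, and Car5a, a mitochondrial carbonic anhydrase, had 8800 and 6600 bp of H3K9me3 alone. Gcsh, of the glycine cleavage system, had 7800 bp of H3K36me3 alone. Mvd, of the mevalonate pathway, had 800 and 6800 bp, Cox4i1, a subunit of cytochrome c oxidase, 200 and 4400 bp, and Mlycd, the malonyl-CoA decarboxylase, 1400 and 600 bp. The groups are too small to be ranked.

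**Figure D4:**
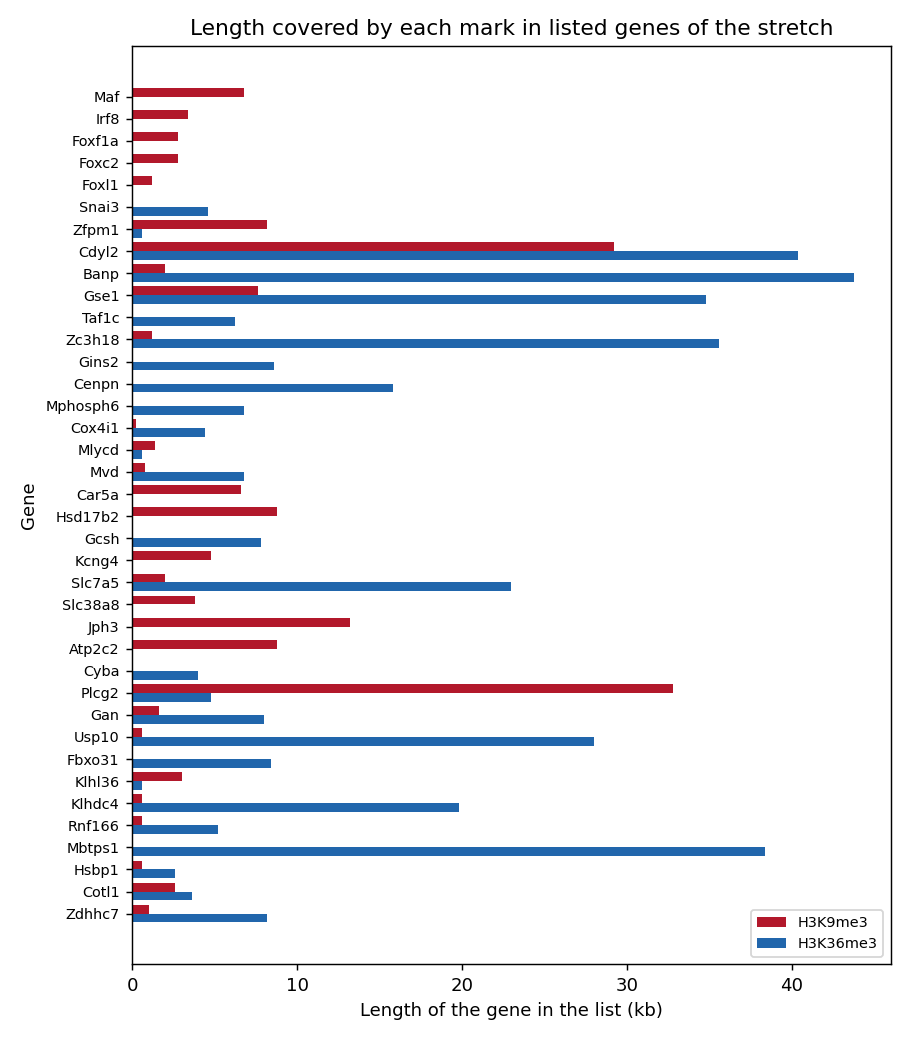
Length (kb) in the H3K9me3 list (red) and the H3K36me3 list (blue) for the listed genes of the stretch other than Wwox and Cdh13, in the order of the gene groups. Bars are sums over the pooled lists, with no replicates. Among others, Gins2, Cenpn, Mphosph6 and Snai3 have H3K36me3 only, Maf, Irf8, Foxf1a and Foxc2 have H3K9me3 only, and Zfpm1 has both. No difference between the groups was tested.

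Single regions of H3K9me3 had the same median width in the stretch as in the rest of the chromosome. It was 800 bp in both, and it was 800 bp in each of the 9 windows of the stretch with at least 10 regions. The upper quartile was 1200 bp in the stretch and 1000 bp in the rest. The minimum width of 600 bp was that of 375 regions of the stretch (interval of the share 36.9 to 43.2%) and of 1050 in the rest (44.1%, 42.1 to 46.1). Only 9 regions (0.961%) exceeded 5 kb. The medians by source were also alike, at 800 bp for Wwox, Cdh13, sequence only in Gm20388 and the other genes. For H3K36me3 the median was 1200 bp in both, and 11.1% against 8.44% exceeded 5 kb. The spacing of H3K9me3 regions differed, which largely restates the choice of the stretch by their number. Gaps also span sequence outside genes, which could not be listed. The median gap to the next H3K9me3 region was 2400 bp in the stretch and 6800 bp in the rest, while for H3K36me3 it was 1200 and 1400 bp.

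The 3 widest H3K9me3 regions of the stretch covered gene starts. The widest, of 12.2 kb, covered all of Foxf1a (chr8:123602401-123614600), and the second, of 10 kb, all of Foxc2 (chr8:123637801-123647800). The third, of 7.2 kb, lay over the start of Jph3 (chr8:124250601-124257800). Their G+C contents were 56.1%, 53.4% and 56.8%, with 44.8, 41.2 and 36.9 CpG per kb, against a median of 15 per kb for the H3K9me3 regions of the stretch. The next were 6.2 kb in an intron of Cdh13, 6 kb in 2310061C15Rik and 5.6 kb in an intron of Wwox. The longest run of H3K9me3 regions with gaps of at most 2 kb was in Cdh13, where 11 regions spanned 24.4 kb (chr8:121544801-121569200). A run of 5 regions spanned 21.2 kb around Foxf1a, and 10 regions spanned 18.8 kb in Cdh13. The widest H3K36me3 region spanned 26.4 kb at the end of Gse1 and in Gins2 (chr8:123081201-123107600), followed by 20.2 kb in Mbtps1 and 19.8 kb in Usp10.

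Fewer H3K9me3 regions of the stretch touched an exon than in the rest of the chromosome. The share was 14.4% (12.3 to 16.8) against 35.2% (33.3 to 37.2), and for coding sequence 11.2% against 28.0%. Regions within 1 kb of a protein-coding gene start made up 3.52% (2.52 to 4.90) and 12.1% (10.9 to 13.5), but 9.60% (6.77 to 13.5) in the genes other than Wwox, Cdh13 and Gm20388 alone, where the interval overlapped that of the rest. Counted per gene, 32 of 74 starts (43.2%) had a region within 1 kb, against 30.4% in the rest. The exon share also differed by source. Exons were touched by 1.28% of the regions of Wwox and 4.98% of those of Cdh13. The 218 regions only in Gm20388 could touch none, since all exons of that model overlap exons of other genes. Their inclusion lowers the share of 14.4%. In the other genes of the stretch the share was 39.7% (34.4 to 45.3), a rise that removal of sources poor in exons fixes. The rest of the chromosome stood at 36.2% (34.2 to 38.2) without sequence only in Gm20388, but with its own long genes. Without those of at least 500 kb it stood at 39.7% (37.6 to 41.8), the same as in these other genes of the stretch. Exons made up 6.58% of the genic bins of the stretch and 12.3% of those in the rest, and the part of this in the share of regions was not tested. Between windows the share ranged from 1.31% in the window of Wwox to 37.3% in that of Cdyl2, and in the rest from 0 to 92.9%. In Cdh13, 13 regions touched 12 of 21 exons, and in Wwox 2 regions touched 2 of 17. For H3K36me3, 46.7% (39.9 to 53.7) of the regions touched an exon against 65.5% (63.4 to 67.6).

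The H3K9me3 regions of the stretch were slightly richer in G+C than those elsewhere on the chromosome. The median was 48.8% (quartiles 46.0 and 52.7) in the stretch and 47.7% (44.0 and 52.5) in the rest, and the medians of single windows ranged from 44.2% to 53.8% and from 40.1% to 57.4%. The genic sequence itself differed more, at 48.5% in the stretch and 43.5% in the rest. The G+C medians by source were 47.0% in Wwox and in Cdh13, 53.0% in sequence only in Gm20388 and 50.5% in the other genes. Regions of at least 60% G+C were fewer, 3.63% (2.61 to 5.03) against 8.06% (7.03 to 9.22), and in the other genes they made up 8.61% (5.94 to 12.3). The median CpG density was 15 per kb in the stretch and 12.5 per kb in the rest.

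At a given G+C content, bins of the stretch were more often in the H3K9me3 list than bins of the rest, except where G+C was highest. In all classes together, 15.6% of the genic bins of the stretch were listed against 5.90%. Below 35% G+C the shares were 6.58% (5.34 to 8.07) and 2.37% (2.21 to 2.54), and at 45 to 50% they were 17.6% (16.8 to 18.4) and 6.34% (6.13 to 6.56). At 60% and above they were 24.7% (22.5 to 27.1) and 25.3% (24.1 to 26.4), and the intervals overlapped. H3K36me3 was listed in 7.65% of genic bins against 8.63%, and it was lower in the stretch in the classes from 40 to 60%, for example 12.6% (11.7 to 13.6) against 21.3% (20.6 to 22.1) at 55 to 60%. H3K9me3 bins were 2.13 times (2.08 to 2.19) the number expected if bins of the same G+C, exon and gene start status were listed as often as in the rest of the chromosome. By source this ratio was 4.61 in Cdh13, 2.84 in Wwox, 1.69 in sequence only in Gm20388 and 1.52 (1.45 to 1.59) in the other genes. By window it ranged from 1.02 (0.936 to 1.11) in the last to 4.26 (4.06 to 4.47) in the window 6 Mb into the stretch. For H3K36me3 the ratio was 0.746 in the stretch, and 1.47 in the other genes. In these ratios the rest kept its own genes of at least 500 kb. Without such genes and sequence only in Gm20388 on both sides, the H3K9me3 ratio was 1.47 (1.41 to 1.54). No such ratio was computed for H3K36me3.

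**Figure D5:**
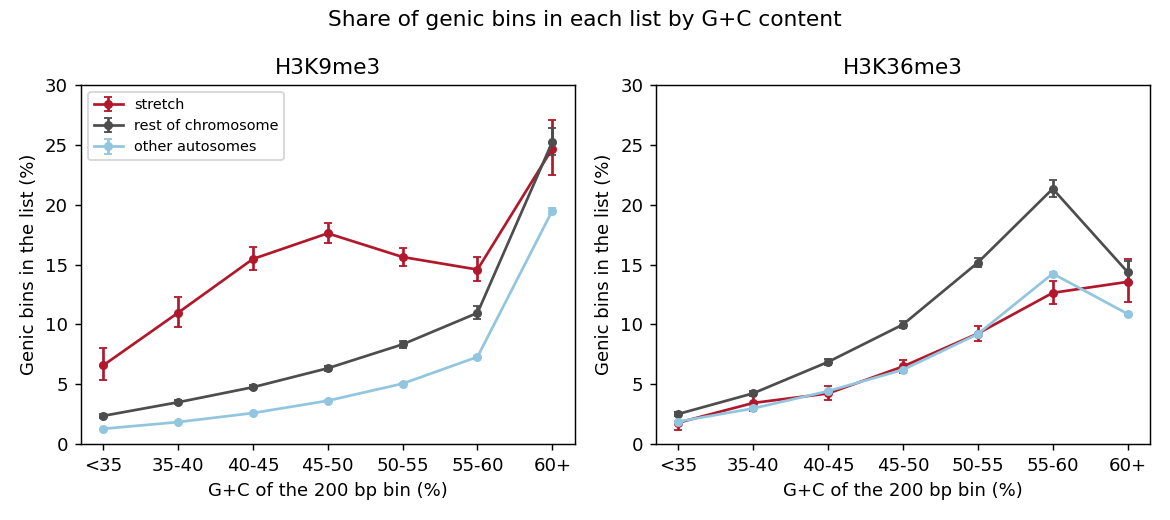
Share of genic 200 bp bins in each list (%) by the G+C content of the bin (%), for the stretch, the rest of chromosome 8 and the other autosomes, with 95% Wilson intervals that cover counting error only. For H3K9me3 the stretch lies above the rest in each class below 60% G+C (17.6% against 6.34% at 45 to 50%) and meets it at 60% and above (24.7% and 25.3%).

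Per H3K9me3 region, overlap of the marks was less frequent in the stretch than in the rest of the chromosome, but not per H3K36me3 region or per gene. An H3K36me3 region was overlapped by 43 of 937 H3K9me3 regions (4.59%, 3.42 to 6.12), against 10.5% (9.29 to 11.7) in the rest. From the side of H3K36me3, 39 of 199 regions (19.6%, 14.7 to 25.7) overlapped H3K9me3, against 13.2% (11.8 to 14.8). In the genes other than Wwox, Cdh13 and Gm20388 alone, the share of H3K9me3 regions was 13.2% (9.88 to 17.5), against 11.8% (10.5 to 13.3) in the rest without genes of at least 500 kb and sequence only in Gm20388, and the intervals overlapped. The overlap formed 48 intervals and 43800 bp. It touched 15 of 74 protein-coding genes (20.3%, 12.7 to 30.8), against 16.0% (13.9 to 18.4) in the rest and 6.95% on the other autosomes, so by gene the share was not lower than in the rest. None of them lay within 1 kb of a gene start, and 15 touched coding sequence.

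Cdyl2 held the largest amount of both marks, 12600 bp of the 43800 bp. It was followed by 2310061C15Rik with 33 bins of 200 bp, Plcg2 with 23, Gse1 with 20, 4933407C03Rik with 18 and Mthfsd with 12. The other genes with a shared bin held 3 to 9 bins each and were Zcchc14, Zc3h18, Slc7a5, Mvd, Banp, Usp10, Klhl36, Klhdc4 and Hsbp1. The widest shared interval, of 2400 bp, lay in Mthfsd (chr8:123622601-123625000), a gene named for its methenyltetrahydrofolate synthetase domain, and its G+C content was 56.7%. In Plcg2, 4600 of the 4800 bp of H3K36me3 were also in the H3K9me3 list. As the lists pool WT and G34R cells, a shared interval does not show that both marks were enriched in the same cells.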

How the data were processed

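ChIP-seq libraries of 4 groups, 1 library each, were made from WT and G34R ES cells for H3K9me3 and H3K36me3. The authors aligned reads to mm9 (Bowtie 1.0.0 and bedtools 2.20.1 per the submitters' processing notes), removed duplicates, counted reads in 200 bp bins in SeqMonk, matched the WT and G34R distributions, kept genic bins above the 95th percentile in either cell type and joined bins within 100 bp. They deposited 1 list per mark with 3 columns (chromosome, start, end). The values are positions (unit "other") with no reads, so depth is unknown. The percentile threshold largely sets the length of a list, and the narrowest regions were 600 bp. The methods name a limit of 500 bp as an upper bound on merged regions, which the lists do not follow, so it was read as a minimum width; counts and widths depend on it.

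Regions were assigned by start. Genes came from the GENCODE annotation of NCBIM37, the assembly equivalent to mm9, whereas the authors filtered bins on UCSC genes. Densities were compared by exact conditional binomial intervals and shares by Wilson intervals (95%), for counting error only. Regions, bins and genes are not replicates, so no p-value was computed. A run joined regions up to 2 kb apart, and strata of G+C were 2 percentage points wide. Counting code was tested on simulated data. Python 3.11.15, numpy 2.4.6, scipy 1.17.1 and matplotlib 3.10.9 were used. Named genes were the 15 with the most H3K9me3 regions, the 8 with the most H3K36me3 regions, genes with a bin in both lists and members of the gene lists. Other genes named, and those with neither mark, were chosen after their values were seen. The stretch, members and lists were chosen with earlier results of these data known. Alternatives were a larger minimum width, merging, midpoints, covered length, other references, narrower bounds and other overlap rules; leaving out Gm20388, Wwox and Cdh13, or all genes of at least 500 kb, was added after seeing the data.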

Additional observations from a re-analysis of the deposited data

How the results depend on the processing

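Of 46 alternatives for the H3K9me3 values and the share of genes, 11 left the value within its interval or within 1.5 times of a count, among them assignment by midpoint. The other 35 moved it, none of the density or expected ratios to below 1. With regions of at least 1 kb there were 337 H3K9me3 regions in the stretch, their share of both lists was 72.6% and 19.3% of them touched an exon. Counting neighbours within 2 kb as 1 gave 507 regions, a share of 85.9% and a density ratio of 3.78. Without the window with the most H3K9me3 regions (222, mostly in Cdh13) the share was 78.4%, the density ratio 4.06 and the ratio of observed to expected bins 1.84. With the stretch narrowed by 1 Mb at both ends the share was 86.3% and the density ratio 5.33. By covered length the share was 67.1%. The density ratio was 2.77 per genic Mb. Per Mb of chromosome it was 2.40 against the adjacent 10 Mb on the centromere side and 7.57 against the other autosomes. The ratio of observed to expected bins was 2.04 with strata of G+C alone and 3.48 with expectations from the other autosomes. Requiring reciprocal overlap of 50% lowered the share of H3K9me3 regions that overlap H3K36me3 to 1.17%.

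The remaining alternatives were chosen after seeing the data, with densities per genic Mb. Without regions only in Gm20388 the share was 78.8%, the density ratio 2.90 and the ratio to expected 2.36. Without Wwox and Cdh13 there were 520 regions, a share of 72.8%, a density ratio of 2.21 and a ratio to expected of 1.59. Without all 3 there were 302 regions, a share of 61.6%, a density ratio of 2.07 and a ratio to expected of 1.54, while 13.2% overlapped H3K36me3 and 39.7% touched an exon. The H3K36me3 density ratio per genic Mb went from 0.740 to 1.58. That removal took long genes from the stretch alone. With genes of 500 kb or more and regions only in Gm20388 left out on both sides, the stretch again held 302 regions with a share of 61.6%, the density ratio was 1.82 (H3K36me3 1.24) and the ratio to expected 1.47. The rest then stood at 11.8% for overlap with H3K36me3 and 39.7% for exons, with intervals that overlapped those of the stretch. No paired analysis was possible because each group had 1 library and the lists hold no value per library. Read depth, WT and G34R cells, and replicate variation cannot be told from the lists.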

Other observations

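H3K9me3 regions lay within 1 kb of the start of 32 of the 74 protein-coding genes of the stretch (43.2%, 95% Wilson interval 32.6 to 54.6), against 306 of 1007 (30.4%, 27.6 to 33.3) in the rest of chromosome 8. Genes with such a region included Maf, Irf8, Foxf1a and Foxc2, and also Gse1, Banp, Slc7a5 and Cox4i1, which carried H3K36me3 over their bodies. H3K36me3 lay within 1 kb of the start of 4 of the 74 genes (5.41%, 2.12 to 13.1), namely Syce1l, Taf1c, 1110003O08Rik and Cyba, against 4.37% in the rest. For both marks the intervals of the stretch and the rest overlapped, and they cover counting error only.

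Beyond the end of the stretch, the next 4 windows of 1 Mb held 60, 80, 56 and 58 H3K9me3 regions and 90, 58, 73 and 27 H3K36me3 regions. Gm20388 alone supplied 19 and 44 of the H3K9me3 regions in the first 2 of these windows. With that model set aside, the gene with the most in the first was Cbfa2t3, a transcriptional corepressor of blood cells, with 12. In the next windows it was Galnt2, a glycosyltransferase, with 10, Disc1, a scaffold protein of neurons, with 18, and Pcnxl2 with 23. These genes were chosen after their values were seen.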
